A study of Mus musculus with 16 samples.

Results

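The genes described here are 10 endoderm lineage genes of the mouse: the transcription factor genes Gata4, Gata6, Sox17, Sox7, Foxa2 and Hnf4a, the secreted protein genes Afp, Ttr and Apoa1, and the adaptor protein gene Dab2. They were taken by symbol from the deposited expression table and have 19 of its 33702 RefSeq rows, which sum to 10 of its 24221 genes. The RNA came from embryoid bodies (EBs), the balls that embryonic stem cells form in suspension, grown for 4 days from R1 mouse ES cells without Lif, the cytokine that holds ES cells in the pluripotent state. One group of EBs was taken just before retinoic acid (RA) was added (day 0), and the other after 4 days in 2 μM RA (day 4). Both groups thus had the same 4 days of growth before RA, and no EBs grown for the longer time without RA are among the samples, so RA and the further days in culture cannot be told apart. The study repeated this to obtain 2 RNA samples a day, and divided each of the 4 RNA samples into 4 vials, which gave 16 libraries. The vials received mix 1, 2 or 3 of synthetic mouse RNAs or none of these (mix 4), and each vial, mix 4 included, also received 1 of the 2 ERCC mixes of standard control RNAs.

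Endoderm is the germ layer that forms the lining of the gut and its glands. Cells of this kind also arise earlier, outside the embryo proper: primitive endoderm lines the inner cell mass and gives rise to parietal endoderm and to visceral endoderm, the layer that wraps the early embryo and feeds it. GATA4 and GATA6 are zinc finger transcription factors that direct primitive endoderm, SOX7 and SOX17 are related HMG box factors of the same lineage, and FOXA2 and HNF4A act later, in visceral endoderm, gut and liver. AFP, transthyretin (Ttr) and apolipoprotein A-I (Apoa1) are proteins that visceral endoderm and liver secrete. Several of these genes have other homes as well: Gata4 and Gata6 are active in heart, Sox7 and Sox17 in endothelium, Foxa2 in floor plate and notochord, Ttr in choroid plexus. All 16 libraries come from whole EBs, and more cells of a type and more RNA per cell cannot be told apart in them.

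Expression was measured as FPKM, the fragments of a transcript scaled to its length and to the library size, which puts genes of different length on 1 scale. The fragment counts behind each value were not used here, so no counting error is given. FPKM sums per library lay between 407711 and 616363. At day 0 the mix 3 and mix 4 vials of RNA sample 2 stood apart from the other vials, although they hold the same RNA as mixes 1 and 2: correlations between the vials of that RNA sample went down to 0.941, against 0.9938 or more within each of the other RNA samples. The difference followed the GC content of the transcripts. In the bin of highest GC, the deviation from the mean of all libraries was 0.56 to 1.60 on the log2 scale in the other 6 day 0 vials, but -1.36 and -1.13 in these 2, and between -0.94 and -0.22 at day 4. The study's mapping statistics also give these 2 vials the highest shares of reads within introns, and the part of this was not tested. For the lineage genes, values without these vials, with day 0 from these vials only, or with FPKM corrected for GC content are given where they change a call or the size markedly. For the other lists the counts with GC correction stand beside the others. The labels call the cells embryonic stem cells. The summed FPKM of 6 pluripotency genes was 149.9 and 108 in the RNA samples of day 0 and 5.41 and 4.12 at day 4, and 5 of the 6 fell (Pou5f1, which encodes the core pluripotency factor OCT4, from 87.3 and 37.2 to 1.04 and 0.693 FPKM). In the test described next, 14.5% of all genes were called lower, and 22.5% with GC correction.

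To ask which of these genes changed under RA, the 4 vials of an RNA sample were averaged and the 2 averages of day 4 were set against those of day 0 on log2(FPKM + 0.1). Of the 10 lineage genes, 7 rose (Gata4, Gata6, Foxa2, Hnf4a, Afp, Apoa1 and Dab2), Sox7 fell, and Sox17 and Ttr did not pass the test (limma, adjusted p of at most 0.05). Among all 20542 genes tested, 16% were called higher and 14.5% lower, and with GC correction 18.8% and 22.5%. The median change of the 10 genes was 1.34 on the log2 scale, beside -0.025 over all genes tested. By single vials, the 8 vials of day 4 lay above all 8 of day 0 in 6 of the lineage genes and below them in Sox7. Of all genes, 19.8% did the former and 14.6% the latter. Without either RNA sample of day 4, no gene of the table was called by limma (4941 and 4720 at an unadjusted p of at most 0.05), with Gata6 at an adjusted p of 0.0871 and 0.0933, so all calls rest on having both.

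**Figure D1:**
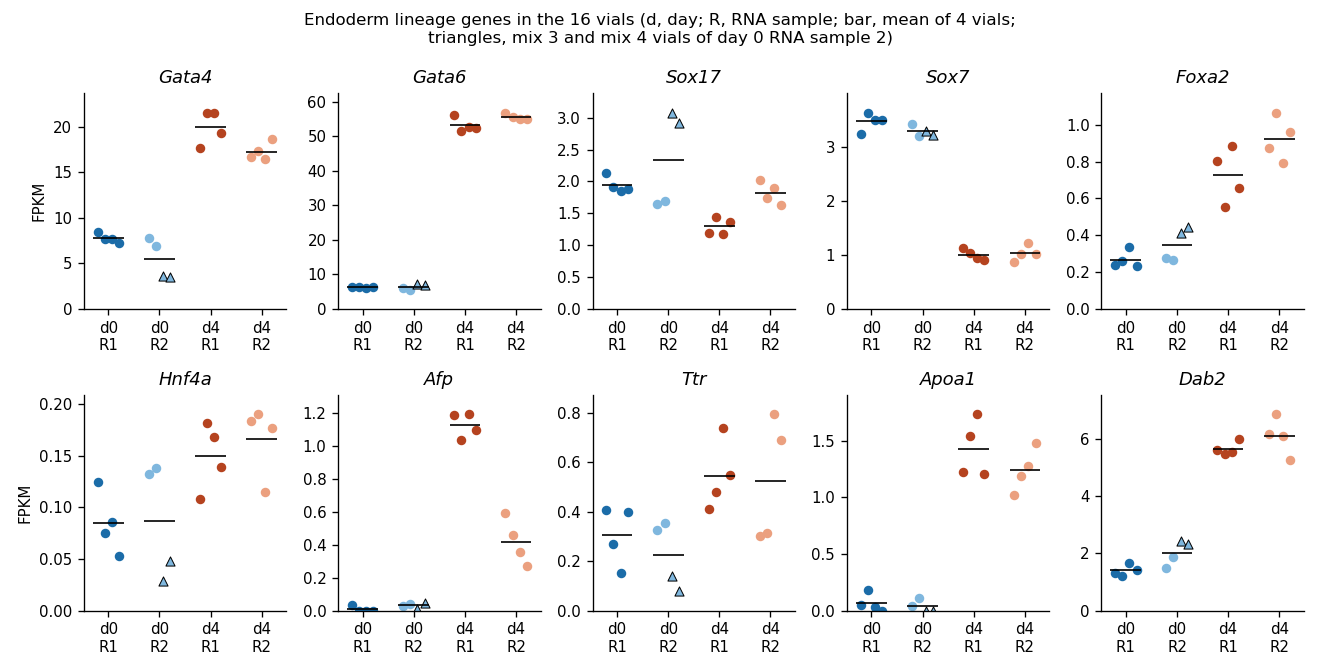
FPKM of each of the 10 genes in the 16 vials (y axis, linear, from 0), grouped by day (d0, d4) and RNA sample (R1, R2). Points are vials, bars are the mean of 4 vials, and triangles are the mix 3 and mix 4 vials of day 0 RNA sample 2, which lie apart from the other vials of their RNA in Gata4 (3.58 and 3.49 FPKM) and Sox17 (3.08 and 2.91 FPKM).

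Gata6 was the most abundant of the 10 genes at day 4 and showed little spread. Its level lay between 5.55 and 7.34 FPKM in the 8 vials of day 0 (median 6.28) and between 51.5 and 56.9 FPKM in those of day 4 (median 55.1). Day 0 averaged 6.36 ± 0.160 FPKM and day 4 54.4 ± 1.79 FPKM (SD, n = 2 RNA samples each), an 8.56-fold higher level. The change on the log2 scale was 3.08 (SE 0.14, limma adjusted p = 0.00462). With GC correction it was 3.70.

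Gata4, its relative, had a like mean at day 0 (6.6 FPKM) and rose less. It was above Gata6 in all day 0 vials other than mixes 3 and 4 of RNA sample 2. The 4 vials of day 0 RNA sample 1 had 8.43, 7.67, 7.66 and 7.20 FPKM. In RNA sample 2 the mix 1 and mix 2 vials had 7.82 and 6.95 FPKM, and the mix 3 and mix 4 vials 3.58 and 3.49 FPKM. The last 2 vials, lowest in Gata4, were the 2 highest of day 0 in Gata6 (7.34 and 7.02 FPKM). At day 4 the vials of RNA sample 1 had 17.7, 21.6, 21.5 and 19.3 FPKM, and those of RNA sample 2 had 16.7, 17.4, 16.5 and 18.6 FPKM. The days did not overlap, and the change was 1.5 on the log2 scale (SE 0.24, limma adjusted p = 0.0228). It was 1.29 without the 2 low vials, 2.36 with day 0 taken from them alone, and 2.46 with GC correction (adjusted p of 0.00278, 0.043 and 0.0012 by limma). The single Gata4 row has 57.3% GC and the single Gata6 row 56.5%, although the 2 genes differed in opposite directions in those vials. The cause of this was not tested.

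The ratio of Gata6 to Gata4, both per length, was higher in every vial of day 4 than in any of day 0. It lay between 0.756 and 0.885 in the vials of day 0 RNA sample 1 and between 0.764 and 2.05 in those of RNA sample 2, where the upper values belong to the mix 3 and mix 4 vials and the mean was 1.41. At day 4 it lay between 2.39 and 3.17 in RNA sample 1 and between 2.96 and 3.42 in RNA sample 2.

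The pair of SOX genes did not follow the GATA genes. Sox7 lay between 3.19 and 3.63 FPKM at day 0 (median 3.36) and between 0.874 and 1.21 FPKM at day 4 (median 1.01), with no overlap. The means were 3.38 ± 0.131 and 1.02 ± 0.018 FPKM (SD, n = 2), and the change was -1.64 on the log2 scale (SE 0.22, limma adjusted p = 0.0161). The mix 3 and mix 4 vials of day 0 RNA sample 2 gave a mean of 3.26 FPKM and those of mixes 1 and 2 gave 3.31 FPKM, so Sox7 was at a like level in both pairs of vials.

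Sox17 was not called. Its vials had 2.13, 1.91, 1.85 and 1.87 FPKM in day 0 RNA sample 1 and 1.64, 1.69, 3.08 and 2.91 FPKM in RNA sample 2. At day 4 they had 1.2, 1.45, 1.18 and 1.37 FPKM in RNA sample 1 and 2.02, 1.74, 1.90 and 1.63 FPKM in RNA sample 2. The days overlapped, and the 2 highest values were again the mix 3 and mix 4 vials of day 0. The change was -0.44 on the log2 scale with a 95% confidence interval from -1.25 to 0.37 (SE 0.29, limma adjusted p = 0.303), and its sign turned with GC correction (0.14, limma adjusted p = 0.859). Without those 2 vials it was -0.21, and with day 0 from them only it was -0.92.

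The FPKM of Sox17 is the sum of 5 RefSeq rows whose split the authors' program estimates from shared reads. The row NM_001289464, which has the highest GC content of the 19 rows (66.3%), took 80.5% of the gene's FPKM in day 0 RNA sample 1 and 13.0% in RNA sample 2, and it was listed at 0 in all 8 vials of day 4. In RNA sample 2 it had 0.568 and 0.649 FPKM in mixes 1 and 2 and was listed at 0 in mixes 3 and 4, where NM_001289467 had 2.61 and 2.22 FPKM. At day 4 the leading row was NM_001289466 in RNA sample 1 (64.8%) and NM_001289467 in RNA sample 2 (43.8%). No Sox17 row was called in the test of single rows, in which 10.2% of 28213 transcripts were called higher and 8.67% lower. For NM_001289464 the limma adjusted p was 0.072, and 0.0124 without the mix 3 and mix 4 vials of day 0 RNA sample 2.

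**Figure D2:**
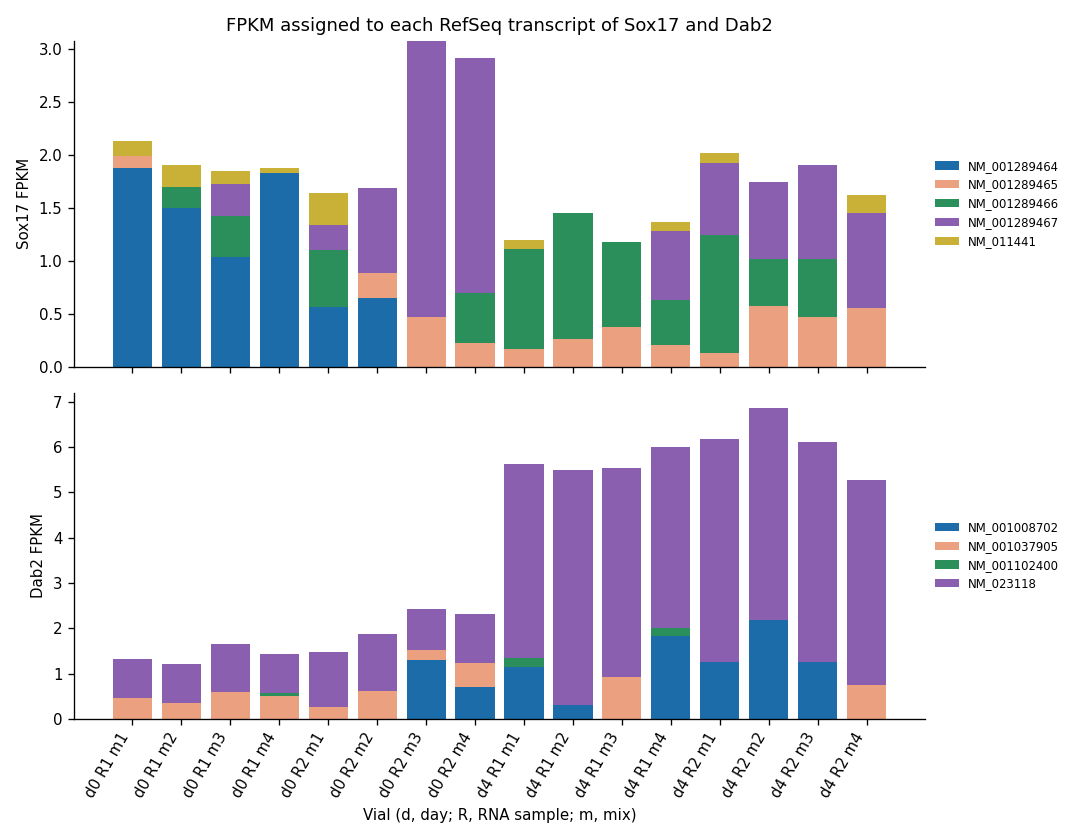
FPKM assigned to each RefSeq row of Sox17 (top) and Dab2 (bottom) in the 16 vials, stacked to the gene's total (y axes in FPKM, from 0; x axis, day, RNA sample and mix). The row NM_001289464 of Sox17 appears in 6 of the 8 day 0 vials and in none of day 4, and NM_023118 makes up 55.2% to 79.7% of Dab2 in the 4 RNA samples.

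Foxa2 and Hnf4a, the factors of later endoderm, were low on both days. Foxa2 lay between 0.231 and 0.445 FPKM at day 0 and between 0.556 and 1.07 FPKM at day 4, without overlap. The means were 0.307 ± 0.0596 and 0.825 ± 0.14 FPKM (SD, n = 2), with a change of 1.18 on the log2 scale (SE 0.26, limma adjusted p = 0.0411). With GC correction the change was 1.65 (limma adjusted p = 0.0268), and with day 0 from the mix 3 and mix 4 vials of RNA sample 2 only it was 0.80. The call was lost without day 0 RNA sample 1 (adjusted p = 0.1) or 2 (0.0535) and with day 0 from its 2 divergent vials only (0.149), all by limma. Of its 3 RefSeq rows, NM_001291065 carried all of the FPKM except in 1 vial of day 4, and NM_010446 was listed at 0 in all 16. In that vial NM_001291065 had 0.125 FPKM, below all day 0 vials, and NM_001291067 had 0.431 FPKM. The lack of overlap thus holds for the sum of the rows only. On its own NM_001291065 was not called (log2 change 1.08, SE 0.358, limma adjusted p = 0.1125).

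Hnf4a never passed 0.19 FPKM. It lay between 0.029 and 0.138 FPKM at day 0 and between 0.108 and 0.19 FPKM at day 4, and the days overlapped. The means were 0.0856 ± 0.00159 and 0.158 ± 0.0122 FPKM (SD, n = 2) and the change was 0.47 on the log2 scale (SE 0.11, limma adjusted p = 0.0477), just inside the threshold. At day 0 the mix 3 and mix 4 vials of RNA sample 2 had 0.029 and 0.048 FPKM, and mixes 1 and 2 of the same RNA had 0.132 and 0.138 FPKM. Without the former, the call was lost (log2 change 0.31, limma adjusted p = 0.172), as it was without any 1 of the 4 RNA samples (limma adjusted p from 0.0573 to 0.168). With day 0 from the mix 3 and mix 4 vials of RNA sample 2 only, the log2 change was 0.90. With GC correction it was 0.71 (limma adjusted p = 0.0112). In all, the call was lost in 11 of 21 alternatives. In the test of single rows, the only Hnf4a row was not called (limma adjusted p = 0.108).

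The secreted protein genes were near 0 at day 0 and stayed low. Afp, the main serum protein of the fetus, was listed at 0 in 3 of the 8 day 0 vials and had at most 0.048 FPKM in the rest. At day 4 it had 1.19, 1.03, 1.19 and 1.09 FPKM in RNA sample 1 and 0.592, 0.457, 0.354 and 0.271 FPKM in RNA sample 2. Every day 4 vial lay above every day 0 vial, but the RNA samples of day 4 did not overlap each other (means of 1.13 and 0.419 FPKM). The change was 2.74 on the log2 scale (SE 0.48, limma adjusted p = 0.0268), and the call was lost without day 0 RNA sample 1 (limma adjusted p = 0.13) or 2 (0.0921) and with day 0 from the mix 3 and mix 4 vials of RNA sample 2 only (2.63, limma adjusted p = 0.13).

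Apoa1, the main protein of high density lipoprotein, was listed at 0 in 3 day 0 vials, and the highest had 0.183 FPKM. At day 4 its vials had 1.22, 1.54, 1.73 and 1.21 FPKM in RNA sample 1 and 1.02, 1.19, 1.28 and 1.49 FPKM in RNA sample 2. The RNA samples of day 4 overlapped, unlike those of Afp. The change was 3.25 on the log2 scale (SE 0.22, limma adjusted p = 0.00539). With GC correction it was 3.90 (limma adjusted p = 0.000293), and with day 0 from the mix 3 and mix 4 vials of RNA sample 2 only 3.84. For both genes the size depends on the value added before the log: with 1 FPKM in place of 0.1 the change was 0.77 for Afp, whose call was lost (limma adjusted p = 0.0852), and 1.15 for Apoa1 (0.0067).

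Ttr, the carrier of thyroid hormone and of the retinol-binding protein, was not called. Its day 0 vials had 0.405, 0.269, 0.151 and 0.4 FPKM in RNA sample 1 and 0.324, 0.354, 0.138 and 0.077 FPKM in RNA sample 2. At day 4 they had 0.412, 0.479, 0.736 and 0.548 FPKM in RNA sample 1 and 0.301, 0.314, 0.793 and 0.691 FPKM in RNA sample 2. The days overlapped, and vials of the same RNA differed more than the means of the RNA samples did. The change was 0.81 on the log2 scale (SE 0.22, 95% confidence interval from 0.18 to 1.44, limma adjusted p = 0.0655). It was called in 8 of 21 alternatives. Among these were the fits in which the mix 3 and mix 4 vials of day 0 RNA sample 2 were left out (0.59, limma adjusted p = 0.027), in which day 0 came from them only (1.61, 0.0457), and in which RNA samples of the same number were paired (replicate block, 0.0363). It was 0.45 with GC correction (limma adjusted p = 0.223).

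Dab2, which encodes an endocytic adaptor protein of primitive and visceral endoderm, lay between 1.21 and 2.43 FPKM at day 0 (median 1.56) and between 5.28 and 6.86 FPKM at day 4 (median 5.82), with no overlap. The means were 1.71 ± 0.441 and 5.89 ± 0.313 FPKM (SD, n = 2), and the change was 1.74 on the log2 scale (SE 0.27, limma adjusted p = 0.0209). With GC correction it was 1.38 (limma adjusted p = 0.00503), and with day 0 from the mix 3 and mix 4 vials of RNA sample 2 only 1.28. Of its 4 RefSeq rows, NM_023118 held 65.3% and 55.2% of the FPKM in the RNA samples of day 0 and 79.7% and 77.8% in those of day 4. On its own it went from 0.914 and 1.12 FPKM to 4.51 and 4.75 FPKM (log2 change 2.09, SE 0.25, limma adjusted p = 0.0228). The row NM_001008702 was listed at 0 in 6 of the 8 day 0 vials, and the other 2 were again mixes 3 and 4 of RNA sample 2 (1.30 and 0.697 FPKM). NM_001037905 went the other way, above 0 in all 8 day 0 vials and listed at 0 in 6 of the 8 of day 4. It was not called (log2 change -0.80, limma adjusted p = 0.116), but was without the mix 3 and mix 4 vials of day 0 RNA sample 2 (0.0375).

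**Figure D3:**
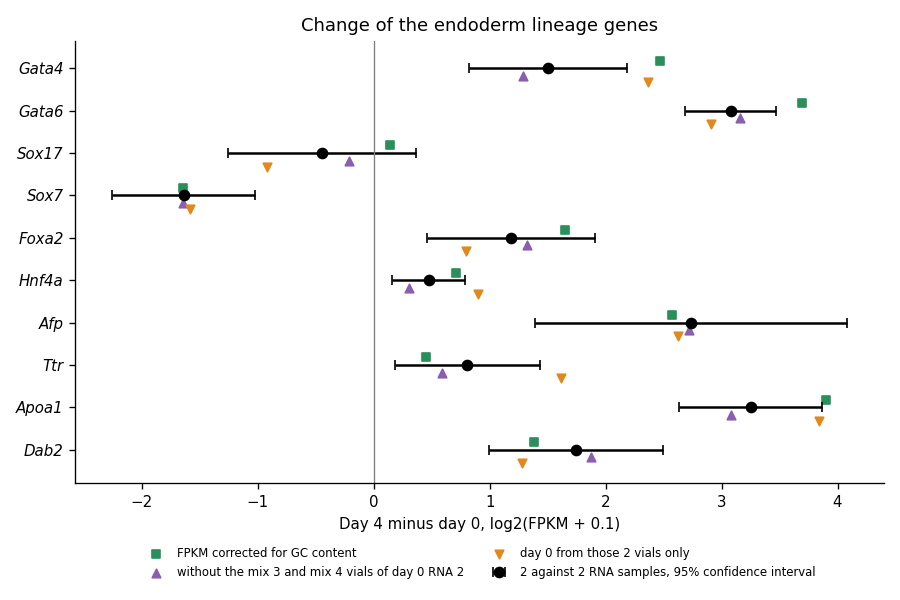
Difference between day 4 and day 0 in log2(FPKM + 0.1) for each gene (x axis). Black points are the comparison of 2 against 2 RNA samples with 95% confidence intervals, squares use FPKM corrected for GC content, and triangles leave out, or take day 0 only from, the mix 3 and mix 4 vials of day 0 RNA sample 2. Sox7 stays near -1.64 in all 4, Gata4 goes from 1.29 to 2.46, and Sox17 lies on both sides of 0.

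The order of the levels changed between the days. At day 0 Gata4 (6.6 FPKM) and Gata6 (6.36 FPKM) came first and their vials overlapped, then Sox7 (3.38), Sox17 (2.13) and Dab2 (1.71). The vials of Sox17 and Dab2 overlapped too, and so did those of each pair of neighbours among Foxa2 (0.307), Ttr (0.265), Hnf4a (0.0856), Apoa1 (0.0511) and Afp (0.0201). At day 4 Gata6 (54.4 FPKM), Gata4 (18.6) and Dab2 (5.89) were apart from each other and from the rest. Below them Sox17 (1.56), Apoa1 (1.34), Sox7 (1.02), Foxa2 (0.825), Afp (0.773) and Ttr (0.534) each overlapped with the next, and Hnf4a (0.158) lay below all vials of Ttr. In FPKM, the sum of the 10 genes lay between 19.6 and 22.3 in the vials of day 0 and between 83.5 and 86.7 in those of day 4, of which Gata6 had the greater part.

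The 250 bases before and 50 bases after annotated transcription starts were searched for short motifs. RefSeq promoter windows of GRCm38 were at hand only for Foxa2, Hnf4a, Afp, Apoa1 and Dab2, 9 windows in all, and these 5 genes were searched for that reason. Both strands were searched for AGATAA, which factors of the GATA family bind, AACAAT for the SOX family, TGTTTAC for the FOXA family, CAAAGTC for HNF4, GTTAAT for HNF1, and direct repeats of AGGTCA with 5 bases between for RA receptors. The lines below show the 30 bases around the matches upstream of a start in Foxa2, Hnf4a and Afp, with the match in capitals, read along the gene's strand. Positions count from the start, with negative values before it.
Afp, HNF1 motif at -105, chr5:90490597-90490626, plus strand: gacccctgctctGTTAATtattggcaaatt
Foxa2, GATA-family motif at -183 of the last of its 3 starts, chr2:148045630-148045659, minus strand: ctgttagccttgAGATAAtattaactttgt
Foxa2, HNF1 motif in reverse at -176 of the same start, chr2:148045623-148045652, minus strand: ccttgagataatATTAACtttgtgatcaaa
Hnf4a, GATA-family motif at -52 of its first start, chr2:163506793-163506822, plus strand: gaagaatcaataAGATAAccgggcggggtg
Hnf4a, HNF1 motif in reverse at -81 of its second start, chr2:163547062-163547091, plus strand: gcaacgggggtgATTAACcattaactccta
Hnf4a, HNF1 motif in reverse at -74 of the same start, chr2:163547069-163547098, plus strand: gggtgattaaccATTAACtcctacccctcc
The Foxa2 matches lie 1 base apart and do not overlap, and neither do those of the second Hnf4a start. Dab2 held an AGATAA in reverse at 14 of its first start and a GTTAAT at -65 of its second. AGATAA occurs in 11.2% and GTTAAT in 7.1% of the 32851 windows searched. None of the 9 windows held the SOX motif (10.7% of all windows), the FOXA motif (3.65%), the HNF4 motif (4.44%) or the RA receptor repeat (3 windows of all), and the Apoa1 window held none of the 6. A match is a string of letters only and does not show binding.

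Other endoderm genes, in 4 lists, moved in both directions, with median changes between -1.23 and 0.20 on the log2 scale, beside 1.34 for the 10. The counts of each list stand beside 16% of all genes called higher and 14.5% lower, and with GC correction 18.8% and 22.5%. Of 18 further transcription factor genes, 1 rose, 9 fell and 8 did not pass, with a median change of -1.15 on the log2 scale, and with GC correction 2 rose and 11 fell. The 1 that rose, named after its values were seen, was Gata5, another GATA gene of endoderm and heart, from 0.0403 and 0.0223 FPKM to 1.80 and 1.55 FPKM (log2 change 3.76, SE 0.22, limma adjusted p = 0.00471). The greatest falls were those of Cdx2, a factor of trophoblast and hindgut, and of Eomes and Mixl1, factors of the primitive streak: Cdx2 from 57.6 and 31.3 to 0.164 and 0.212 FPKM, Eomes from 13.9 and 16.8 to 0.067 and 0.0813 FPKM, and Mixl1 from 35.2 and 43.5 to 0.45 and 0.515 FPKM. Sall4, a zinc finger gene also of pluripotent cells, fell from 48.8 and 45.6 to 0.715 and 0.872 FPKM. Also called lower, and named after their values were seen, were Otx2 (log2 change -3.57), Gsc (-3.33), Hhex (-2.78), Foxa3 (-1.84) and Prox1 (-1.29). Hhex went from 8.14 and 9.67 to 1.23 and 1.19 FPKM.

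Of 16 primitive and parietal endoderm genes, 2 rose, 6 fell and 8 did not pass (median -1.11), beside 16% and 14.5% of all genes. With GC correction 5 rose and 9 fell (median -0.87), beside 18.8% and 22.5%. Plat, tissue plasminogen activator, rose from 4.79 and 2.73 to 109 and 96.5 FPKM (log2 change 4.79, SE 0.32, limma adjusted p = 0.00532). The other gene that rose, named after its values were seen, was Pdgfra, a receptor gene of primitive endoderm and mesoderm, from 6.31 and 7.07 to 38.2 and 36.3 FPKM. The keratin genes Krt8 and Krt18 fell, from 469 and 179 to 21.2 and 15.8 FPKM and from 365 and 168 to 28.8 and 22.7 FPKM, and their RNA samples of day 0 differed by over 2-fold. Further genes called lower, named after their values were seen, were Col4a2 (log2 change -3.04), Col4a1 (-2.81), Fst (-2.79) and Nid1 (-0.87). Sparc, a matrix protein gene and one of the most abundant of the list, had 141 and 97.4 FPKM before RA and 126 and 114 FPKM after it and was not called.

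Of 20 visceral endoderm and yolk sac genes, 5 rose, 3 fell and 12 did not pass (median 0.20), beside 16% and 14.5% of all genes. With GC correction 7 rose and 7 fell (median 0.26), beside 18.8% and 22.5%. All 5 that rose without it stayed below 0.3 FPKM in each RNA sample. Fgb, a fibrinogen chain, rose from 0.0055 and 0.0398 to 0.286 and 0.176 FPKM. The other 4, named after their values were seen, were Apoa2, Habp2, Fgg and Serpina1a. The abundant genes of the list went the other way: Apoe fell from 159.9 and 56.9 to 8.33 and 6.26 FPKM and Cited1 from 17.6 and 8.71 to 0.708 and 0.723 FPKM, and Spink1 went from 6.00 and 9.82 to 2.45 and 3.37 FPKM without passing (limma adjusted p = 0.0531), but fell with GC correction (0.0017). Apom, named after its values were seen, was also called lower (log2 change -1.38). Of 10 definitive endoderm genes, 2 rose, 6 fell and 2 did not pass (median -1.23), and with GC correction 2 rose and 7 fell. Nepn rose from 0.00575 and 0.017 to 4.26 and 8.39 FPKM, and Sfrp5, named after its values were seen, from 0.0653 and 0.0225 to 0.243 and 0.17 FPKM. Trh fell from 31.0 and 16.5 to 0.386 and 0.262 FPKM, Fgf17 from 1.30 and 0.472 to 0.024 and 0.012 FPKM, and Epcam from 28.01 and 21.9 to 11.01 and 12.2 FPKM. Cyp26a1, the RA-degrading enzyme, fell from 48.9 and 52.4 to 8.43 and 9.34 FPKM. Cxcr4 (log2 change -1.91) and Kit (-1.38), named after their values were seen, were also called lower.

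**Figure D4:**
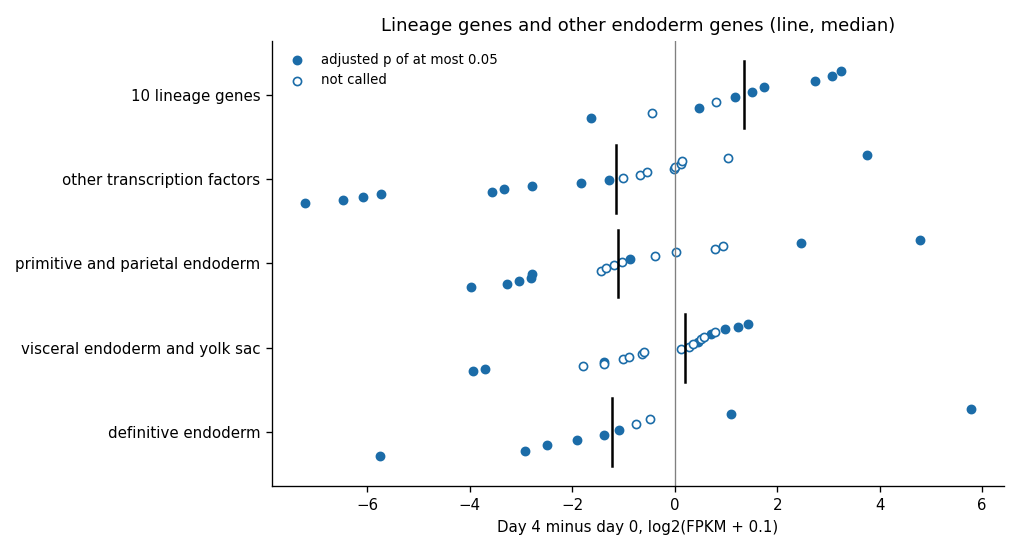
Difference between day 4 and day 0 in log2(FPKM + 0.1) (x axis) for each gene of the 10 lineage genes and of 4 lists of other endoderm genes (rows). Filled points passed an adjusted p of 0.05, open points did not, and black lines are medians, which lie at 1.34 for the lineage genes and between -1.23 and 0.20 for the other lists.

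Markers of the other tissues that use these genes moved in both directions, and their part in the results was not tested. Their counts stand beside 16% and 14.5% of all genes called higher and lower, and those with GC correction beside 18.8% and 22.5%. Of 8 heart markers, 1 rose and 2 fell (2 and 4 with GC correction), with summed levels of 22.5 to 58.6 FPKM in the vials of day 0 and 11.7 to 15.7 FPKM at day 4. Tbx5 rose from 0.0295 and 0.022 to 1.62 and 1.48 FPKM, Hand1 fell from 36.0 and 18.3 to 0.0575 and 0.0238 FPKM, and Myh6, a heavy chain of heart myosin, fell from 0.427 and 0.145 to 0.0118 and 0.00975 FPKM. Myl7, a light chain, had 4.83 and 3.27 FPKM before RA and 2.34 and 2.09 FPKM after it, and Isl1 had 4.83 and 5.85 FPKM and then 3.54 and 3.97 FPKM. Neither passed, but Isl1 fell with GC correction (limma adjusted p = 0.0291).

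Of 7 endothelial markers, 1 rose and 2 fell (2 and 2 with GC correction), with sums of 51.9 to 77.7 FPKM at day 0 and 47.2 to 55.2 FPKM at day 4. Emcn rose from 0.109 and 0.106 to 12.9 and 13.1 FPKM, while the receptor genes Kdr and Tek fell, from 44.8 and 45.3 to 17.5 and 17.0 FPKM and from 6.79 and 5.81 to 2.87 and 2.91 FPKM. Pecam1 had 12.1 and 7.47 FPKM before RA and 12.6 and 10.5 FPKM after it. Of 6 floor plate and notochord markers, 2 rose and 1 fell (2 and 2 with GC correction), with sums of 57.6 to 79.4 FPKM at day 0 and 2.67 to 3.40 FPKM at day 4. Nearly all of the day 0 sum was T, the Brachyury gene, which fell from 72.7 and 61.3 to 0.0238 and 0.0143 FPKM. Shh rose from 0.308 and 0.209 to 0.94 and 1.59 FPKM and Ntn1 from 0.378 and 0.159 to 2.05 and 1.47 FPKM.

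Of 4 choroid plexus markers, Kcnj13 was listed at 0 in all libraries, Kl fell and none rose, with sums of 2.55 to 4.01 FPKM at day 0 and 1.36 to 2.07 FPKM at day 4. Clic6 had 2.49 and 2.53 FPKM before RA and 1.02 and 1.40 FPKM after it, Folr1 had 0.947 and 0.377 FPKM and then 0.533 and 0.397 FPKM, and Kl was below 0.05 FPKM in each RNA sample. Of 4 trophoblast markers, 1 rose and 2 fell (2 and 2 with GC correction), with sums of 10.9 to 17.9 FPKM at day 0 and 5.25 to 6.53 FPKM at day 4. Among them Gata2, with 5.84 and 3.40 FPKM before RA and 4.45 and 4.59 FPKM after it, was called only with GC correction (limma adjusted p = 0.0414), and Gata3 fell from 3.81 and 3.56 to 0.747 and 0.827 FPKM. Tfap2c fell from 6.49 and 4.72 to 0.386 and 0.241 FPKM, and Elf5 rose to 0.1 and 0.172 FPKM. Of 6 neural markers, 3 rose, all below 0.5 FPKM, and 2 fell (2 and 1 with GC correction), with sums of 21.5 to 43.4 FPKM at day 0 and 19.2 to 21.8 FPKM at day 4. Pax6, called higher but not with GC correction (limma adjusted p = 0.0506), went from 0.135 and 0.125 to 0.424 and 0.319 FPKM and Tubb3 from 17.6 and 6.46 to 0.874 and 0.648 FPKM, while Nes had 22.9 and 18.7 FPKM and then 18.3 and 20.4 FPKM. Among the pluripotency markers Tdgf1 fell from 45.7 and 57.0 to 0.413 and 0.363 FPKM and Zfp42 from 8.15 and 6.35 to 1.66 and 1.03 FPKM.

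Across the 16 libraries, the gene most like each lineage gene in log2(FPKM + 0.1), among genes with a mean of at least 1 FPKM, was Tmem255a for Gata6 (Pearson r = 0.9995), Usp11 for Gata4 (0.997), Ttc33 for Dab2 (0.995), Fgf15 for Sox7 (0.994) and Gpihbp1 for Apoa1 (0.991). For Sox17 it was Mis18a (0.976), for Afp Fam162a (0.971), for Foxa2 Kmt2e (0.968), for Hnf4a D630045J12Rik (0.924) and for Ttr C2cd3 (0.879). The 16 libraries are vials of 4 RNA samples on 2 days, so these values mostly describe the difference between the days. Among the lineage genes themselves, Gata6 and Dab2 had the highest r (0.97) and Gata6 and Sox7 the lowest (-0.99), and Gata4 had an r of 0.889 with Gata6.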

How the data were processed

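Total RNA of EBs was sequenced with the strand-specific TruSeq total RNA protocol with RiboZero Gold named in the study's methods (the labels also name TruSeq v2). The authors aligned the reads with Bowtie2 2.1.0 to RefSeq transcripts (mm10) plus the spike-ins, estimated abundance with RSEM 1.2.18 and deposited FPKM scaled by TMM factors for 16 libraries. All columns were assigned by sample title (0 without a sample). RNA sample numbers come from the study's sample list, not from the labels. Fragment counts were not used here, so depth per value is unknown, and no count test was run.

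The 48 rows without a RefSeq identifier (spike-ins) and the row of 1700047L14Rik, a spike-in that the study did not count, were left out. Of 33702 RefSeq rows, 98.6% matched a symbol, and rows were summed per symbol. Each RNA sample was the mean of its 4 vials, which are splits of 1 RNA and not replicates. Genes at 0 in every library were left out, as in the study's own test. Day 4 was compared with day 0 using lmFit and eBayes with a trend (limma 3.58.1, R 4.3.3) on log2(FPKM + 0.1), 2 against 2, with Benjamini-Hochberg adjustment over all genes and an adjusted p of at most 0.05. The p-values rest on only 2 RNA samples a day, and eBayes draws the spread of each gene toward a trend over all genes tested. RefSeq rows were tested likewise. The limma step was tested on simulated data. Other steps used Python 3.11.15, numpy 2.4.6, pandas 2.3.3 and matplotlib 3.10.9.

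For GC correction, the FPKM in each of 20 GC bins were divided by the median deviation of that library there, over 13893 transcripts with a mean of at least 1 FPKM (97.4% of transcripts had a GC value, from GENCODE). Real changes between the days that go with GC content may be lost with it. Of 22 alternative settings, 1 (day 0 from the mix 3 and mix 4 vials of RNA sample 2 only) was chosen after seeing the data. The genes, lists and tests were chosen with earlier results of these data known. Genes outside the 10 are named by rule: per list, up to 3 with the greatest change among those called, the 3 with the highest mean FPKM and any at 0 throughout, and, for each of the 10, the gene with the highest Pearson r. Exceptions are marked, and a gene that the rule names is not reported here. Promoter sequences come from RefSeq (GRCm38). For the other 5 genes none is shown.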

Additional observations from a re-analysis of the deposited data

Results flagged for a closer look

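In each of the 40 sets of 4 vials (10 genes in 4 RNA samples), the highest and the lowest vial were compared with the others by Dixon's test, which flags about 1 in 20 sets by chance. It marked 1: Afp in the mix 1 vial of day 0 RNA sample 1, at 0.034 FPKM, where the other 3 vials are listed at 0. With 3 vials tied at 0, the test marks any value above 0, so the mark does not show that this value is unusual.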

How the results depend on the processing

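Of 22 alternatives, 21 gave a value for all 10 genes (the filter at a mean of 1 FPKM left out Foxa2, Hnf4a, Afp, Ttr and Apoa1). In those that gave one, each gene kept the sign of its change other than Sox17, whose change of -0.44 became 0.14 with GC correction, with or without the replicate block, and was called in none. The cause was not tested for any change given here. Main counts were 3281 genes higher and 2972 lower, with 7 and 1 lineage genes. With a filter at a mean of 1 FPKM (fewer genes tested), 2092 genes were higher and 3 lineage genes were. With no filter 1641 genes were lower and 4 lineage genes higher, and the calls of Gata4, Foxa2 and Afp were lost (limma adjusted p = 0.0553, 0.0791 and 0.0794). From mix 4 vials alone, 1046 genes were higher and 367 lower, and only Gata6 and Apoa1 were called (2 higher, 0 lower). Without the mix 3 and mix 4 vials of day 0 RNA sample 2, 5555 genes were higher and 6889 lower, and of the transcripts 6264 were higher and 8159 lower. The Sox17 row NM_001289467 then changed from -0.11 to 0.56. With day 0 from those 2 vials only, 1501 genes were lower. With all 16 vials and duplicateCorrelation, 4581 genes were lower. The call of Hnf4a was lost in that fit (limma adjusted p = 0.104), with a pseudocount of 0.01 FPKM (0.0935), a filter at 0.1 FPKM (0.0706), quantile normalization (0.0525) and robust eBayes (0.0664). Ttr was called after rescaling (1.18, 0.0266), quantile normalization (0.0263), a filter at 0.1 FPKM (0.0472), a pseudocount of 1 FPKM (0.0327) and without a trend (0.0431). The median change of the 10 genes (1.34) was 0.62 with a pseudocount of 1 FPKM and 1.67 after rescaling to equal sums, which moved the median of all genes from -0.025 to 0.086. It was 1.52 with GC correction, with or without the block. GC correction gave 4631 genes lower, and 6263 with the block.

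The replicate block alone gave 4629 genes higher and 5980 lower, with Ttr added to the lineage genes called. The labels do not pair the RNA samples, and only 2 pairs exist. The differences between RNA samples 1 and 2 correlated between the days (r = 0.767 over 11602 genes, FPKM without GC correction). For every mix on both days, RNA sample 2 had the lower deviation in the bin of highest GC. The part of GC content in this r was not tested, so it does not show that the RNA samples are pairs. Leaving out 1 RNA sample gave 0 to 3666 genes higher, 0 to 5549 lower, 0 to 4 lineage genes higher and 0 to 1 lower. The lowest values came without either RNA sample of day 4, 5549 without day 0 RNA sample 2 and 4 lineage genes without either of day 0. Where 1 RNA sample of a day is left, it is assumed to vary like those of the other day.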
